A study of Mus musculus with 6 samples.

Results

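Homeostatic microglia are often recognised by a group of cell-surface and secreted gene products. The 9 genes described here are Tmem119, Cx3cr1, Siglech, Selplg, Slc2a5, Crybb1, Olfml3, Fcrls and Sparc, chosen by name from the 31053 genes of the count matrices. All 9 were matched by symbol and all 9 passed the filter on low counts in the fits. The label of the group is surface and secreted genes. Crybb1 does not meet it by what is known of its product, a soluble crystallin of the lens cytoplasm, and it is kept because it was listed. The measurements are single-nucleus RNA counts from hippocampal nuclei of 9.5-month-old mice, sorted for the myeloid transcription factor PU.1, in 6 libraries of 3 pooled mice each. Each of the 3 backgrounds P301S/E4, P301S/EKO and E4 was measured with TREM2- and with TREM2+, giving 6 genotypes of 1 library each. The names are read here as P301S for mutant tau, E4 for human APOE4, EKO for a lack of Apoe, and TREM2- for deletion of Trem2. All 6 groups share the age, tissue and sort. Both E4 libraries lack tau P301S but carry APOE4, and no library without tau and without APOE4 was analysed here. The promoter that drives tau and the design of the Trem2 and Apoe alleles are not given in the sources used here.

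Microglia are the resident macrophages of the brain, and their resting identity is kept up by PU.1 together with other transcription factors and by TGF-β, which acts through SMAD proteins. Around amyloid, tau pathology or dying neurons they enter disease-associated states, in which resting genes are turned down and lipid-handling and lysosomal genes such as Apoe, Lpl and Spp1 are turned up. TREM2 is a lipid-sensing receptor of microglia that signals through the adaptor Tyrobp (DAP12) and is known to be needed for a full disease-associated state in several mouse models. Among the 9 genes, Cx3cr1 encodes the receptor for the neuronal chemokine fractalkine, Siglech a lectin that pairs with Tyrobp, and Selplg the selectin ligand PSGL-1. Slc2a5 encodes the fructose transporter GLUT5, Fcrls an Fc receptor-like scavenger receptor of the mouse, and Tmem119 a membrane protein used as a microglia marker. Olfml3 is a secreted olfactomedin-family glycoprotein, and Sparc is a secreted matricellular protein that binds collagen.

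In the mouse annotation (GRCm38), Tmem119 lies on chromosome 5 at 113793729-113800516 on the minus strand. Selplg lies nearby on chromosome 5 at 113818536-113832644, also on the minus strand, and Crybb1 on the same chromosome at 112255815-112269585. The annotated span of Cx3cr1 on chromosome 9, 119901616-120069879, overlaps 9 other genes, among them Csrnp1, Xirp1 and Gorasp1, so that counts given to Cx3cr1 depend on how overlapping genes were resolved. The other members had no overlapping gene. RefSeq promoter windows (GRCm38.p6, 250 bases before to 50 after a gene's start) were at hand for 7 of the 9 members. The windows of Slc2a5, which had the largest loss with tau, Siglech, which was lost without being higher in TREM2- tau libraries, and Fcrls, which was lost least, are shown as examples of the different patterns described below. They are chr4:150119094-150119393 (plus strand), chr7:55767934-55768233 (plus strand) and chr3:87263475-87263774 (minus strand), written 5′ to 3′ along the gene. Capitals mark the SMAD box GTCTG on either strand (CAGAC on the other).
Slc2a5: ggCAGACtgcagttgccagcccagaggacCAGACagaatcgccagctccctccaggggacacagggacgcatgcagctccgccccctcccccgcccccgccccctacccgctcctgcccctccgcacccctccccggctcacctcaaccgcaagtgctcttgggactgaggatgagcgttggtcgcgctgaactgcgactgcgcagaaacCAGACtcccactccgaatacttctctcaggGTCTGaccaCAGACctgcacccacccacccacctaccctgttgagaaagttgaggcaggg
Siglech: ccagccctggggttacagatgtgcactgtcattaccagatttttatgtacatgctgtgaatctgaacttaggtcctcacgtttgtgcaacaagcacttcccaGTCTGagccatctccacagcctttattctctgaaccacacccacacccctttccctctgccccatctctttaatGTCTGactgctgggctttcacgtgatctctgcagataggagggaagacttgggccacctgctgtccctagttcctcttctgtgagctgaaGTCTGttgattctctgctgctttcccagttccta
Fcrls: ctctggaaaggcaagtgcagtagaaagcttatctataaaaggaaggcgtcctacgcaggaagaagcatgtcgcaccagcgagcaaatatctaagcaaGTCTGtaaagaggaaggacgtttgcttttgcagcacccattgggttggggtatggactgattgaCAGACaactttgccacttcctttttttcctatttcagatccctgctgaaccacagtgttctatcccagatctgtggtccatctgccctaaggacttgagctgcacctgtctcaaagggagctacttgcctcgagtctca
A SMAD box occurred in 6 of the 7 members' windows and in 49.7% of the 27025 mouse windows of the same length, Olfml3 being the member without one. The Slc2a5 window held 5, a number reached by 0.207% of all windows, the Siglech window held 3, reached by 3.86%, and the Fcrls window held 2, reached by 16.1%. The PU.1 core GAGGAA was in 2 of the 7 windows (Siglech and Fcrls) and in 28.3% of all windows. The MEF2 motif (CTA and TAG with any 4 bases between them) was in that of Cx3cr1 alone and in 3.7% of all. The PU.1-IRF composite (GGAA and GAAA with any 2 bases between them) was in 0 of 7 and in 2.79% of all. Both strands were searched, and the composite can overlap a PU.1 core. These matches describe letters in a window and are not binding sites.

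Across the 6 libraries 31738 nuclei passed the filters of at least 200 detected genes and at most 5% mitochondrial UMIs (unique molecular identifiers, each a counted RNA molecule). Per library this left 3172124 to 8376816 UMIs, with a median per nucleus of 569 in P301S/EKO/TREM2- to 915 in P301S/E4/TREM2-. The deleted gene behaved as labelled but was not at 0: Trem2 had 580.4 CPM (the gene's UMIs scaled to a common library total) in P301S/E4/TREM2- against 1114 in P301S/E4/TREM2+, 469 in P301S/EKO/TREM2- against 976 in P301S/EKO/TREM2+, and 348 in E4/TREM2- against 917 in E4/TREM2+. Apoe had 9.14 and 14.2 CPM in the 2 P301S/EKO libraries and 187 to 1184 CPM in the other 4. Library pairs shared 5 to 13 cell barcodes. Microglia-like clusters held 90.9% to 96.4% of the nuclei of each library, and clusters were formed without the 9 genes. Of the 12 border-associated macrophage markers none was at 0, and they summed to 1223 CPM in P301S/E4/TREM2-, 832 in P301S/E4/TREM2+, 628 in P301S/EKO/TREM2-, 478 in P301S/EKO/TREM2+, 1304 in E4/TREM2- and 1110 in E4/TREM2+. The 12 neuronal markers summed to 186.6 to 554 CPM in the 4 tau libraries, against 2069 in E4/TREM2- and 813 in E4/TREM2+. The 10 monocyte markers summed to 717.5 CPM in P301S/E4/TREM2- and 682 in P301S/E4/TREM2+, 255 in P301S/EKO/TREM2- and 295 in P301S/EKO/TREM2+, and 242 in E4/TREM2- and 172 in E4/TREM2+, none being at 0 in all libraries. Lyz2, which is also on the disease-associated list used below, made up 642 CPM of that sum in P301S/E4/TREM2- and 619 in P301S/E4/TREM2+, and the other 9 markers summed to 75.8 and 63.0 CPM there, 34.0 in P301S/EKO/TREM2- and 25.2 in P301S/EKO/TREM2+, and 27.6 in E4/TREM2- and 22.8 in E4/TREM2+. The part of these markers in the members' lower levels was not tested. Among the T or NK markers, Cd3e and Cd3g were at 0 in all libraries. With 1 library per genotype, a ratio of 2 libraries was not tested, and the 95% interval beside it reflects counting error alone. The p-values below come from fits across all 6 libraries, in which the other TREM2 genotype or the other backgrounds stand in as replicates, and they measure only the spread between these libraries.

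The 9 genes marked the microglia-like nuclei to different degrees. After every nucleus was thinned to 500 UMIs, Cx3cr1 was detected in 59.3% of 26381 microglia-like nuclei, 32.3% of 1144 border-associated macrophage-like nuclei and 6.30% of 127 neuron-like nuclei, whose median was 2986 UMIs before thinning against 722 in microglia-like nuclei. Fcrls was the member not lower in the macrophage-like cluster: it had 765 CPM there against 688 CPM in microglia-like nuclei, and was detected in 32.6% of thinned macrophage-like nuclei against 28.4% of microglia-like ones. Tmem119 had 125 CPM in macrophage-like against 336 CPM in microglia-like nuclei, and Selplg 209.6 CPM against 635 CPM. Sparc had 249 CPM in macrophage-like nuclei against 790.3 CPM in microglia-like nuclei. Slc2a5 and Crybb1 were detected in 0 of 127 thinned neuron-like nuclei, which allows a share of up to 2.36%. Detection of Crybb1, at 1.07% to 2.49% of thinned nuclei by library, was at or near that limit, so its shares are not read further. Its UMIs were not at the level of the neuron-like nuclei: 38.6 CPM in microglia-like nuclei against 4.71 CPM in neuron-like ones.

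Tau P301S on the APOE4 background went with lower levels of most of the group. Compared with E4, 8 of the 9 genes fell in P301S/E4, Slc2a5 the most (to 0.181 of the E4 level) and Selplg and Tmem119 next (to 0.284 and 0.331). Fcrls alone did not pass the test. Slc2a5, the fructose transporter, had 48.1 CPM in P301S/E4/TREM2- and 26.7 in P301S/E4/TREM2+, against 219 in E4/TREM2- and 169.5 in E4/TREM2+. Selplg had 356 CPM in P301S/E4/TREM2- and 287 in P301S/E4/TREM2+, against 1124 in E4/TREM2- and 1056 in E4/TREM2+. Tmem119 had 245 CPM in P301S/E4/TREM2- and 141 in P301S/E4/TREM2+, against 573 in E4/TREM2- and 528 in E4/TREM2+. For all 3 genes both P301S/E4 libraries were far under both E4 libraries, and the P301S/E4/TREM2+ library was the lowest of the 6. The fractalkine receptor Cx3cr1 had 1324 CPM in P301S/E4/TREM2- and 1437 in P301S/E4/TREM2+, against 3125 in E4/TREM2- and 2963 in E4/TREM2+. The Tyrobp-coupled lectin Siglech had 858 CPM in P301S/E4/TREM2- and 889.6 in P301S/E4/TREM2+, against 1941 in E4/TREM2- and 1724 in E4/TREM2+. For these receptors the lowest library was P301S/E4/TREM2-, by a small margin.

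Of the secreted products, Sparc had 639 CPM in P301S/E4/TREM2- and 435.5 in P301S/E4/TREM2+, against 1204 in E4/TREM2- and 1113 in E4/TREM2+. Olfml3 had 270.2 CPM in P301S/E4/TREM2- and 259 in P301S/E4/TREM2+, against 521 in E4/TREM2- and 418 in E4/TREM2+. Both secreted genes were lower in each P301S/E4 library than in either E4 library. The crystallin Crybb1, with 78 to 311 UMIs per library, had 37.1 CPM in P301S/E4/TREM2- and 21.6 in P301S/E4/TREM2+, against 49.8 in E4/TREM2- and 54.0 in E4/TREM2+. The scavenger receptor Fcrls had 734 CPM in P301S/E4/TREM2- and 553 in P301S/E4/TREM2+, against 819 in E4/TREM2- and 792 in E4/TREM2+. The P301S/E4/TREM2- value of Fcrls thus lay close under the E4 values. For all 9 genes the groups did not overlap, both P301S/E4 libraries being under both E4 libraries, as was so for 24.9% of the 12515 genes tested.

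**Figure D1:**
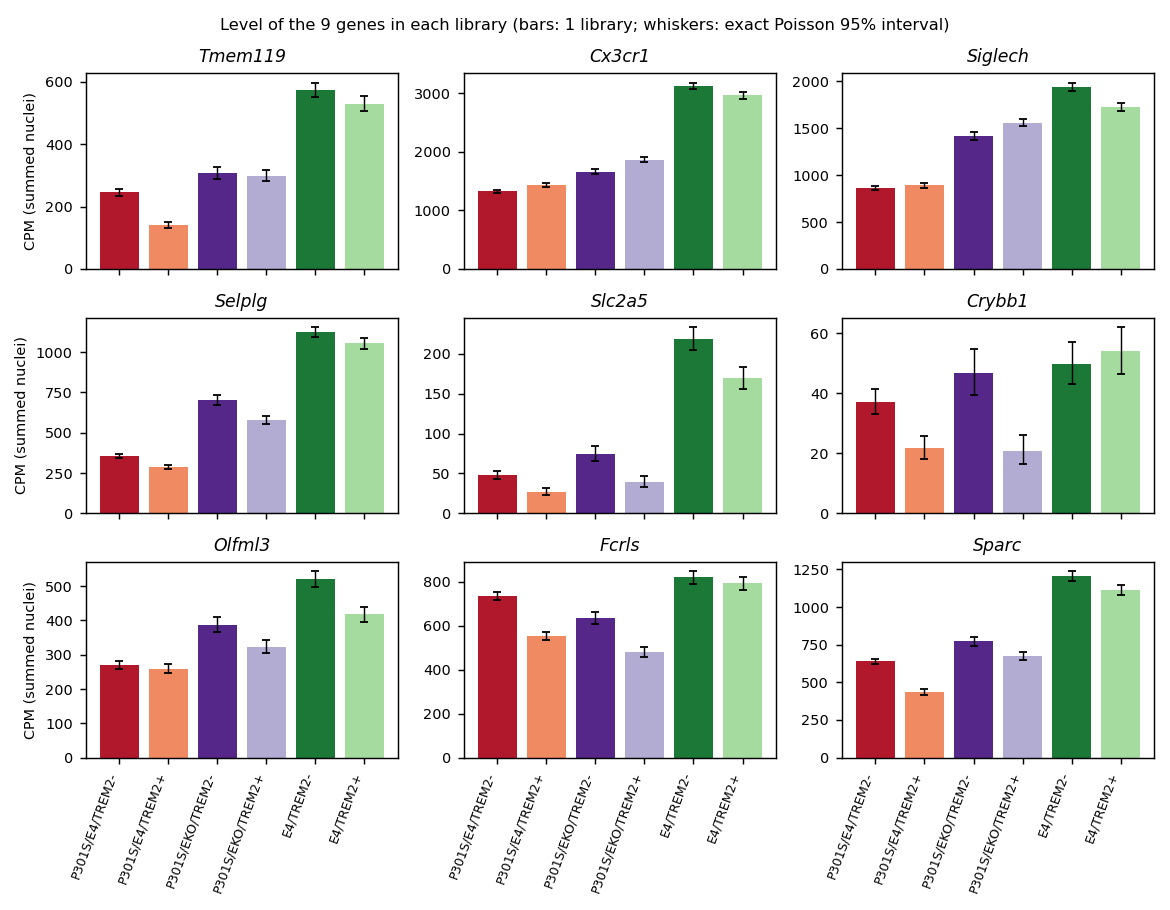
Level of each of the 9 genes (CPM over all passing nuclei, axes from 0) in the 6 libraries, 1 bar per library, with whiskers for the exact Poisson 95% interval of its UMIs. In every panel both P301S/E4 bars stand under both E4 bars, the P301S/EKO bars lie between them for 6 of the genes, and Tmem119 shows a visible step between P301S/E4/TREM2- (245 CPM) and P301S/E4/TREM2+ (141 CPM).

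In the additive edgeR fit the log2 fold change of P301S/E4 over E4 was -2.47 for Slc2a5 (SE 0.16, adjusted p 1.5e-05), -1.82 for Selplg (SE 0.12, adjusted p 1.5e-05) and -1.60 for Tmem119 (SE 0.16, adjusted p 0.000117). It was -1.19 for Cx3cr1, -1.18 for Sparc, -1.12 for Siglech and -0.86 for Olfml3, with SEs of 0.12 to 0.13 and edgeR adjusted p of 0.000112 to 0.00105. It was -0.93 for Crybb1 (SE 0.25, edgeR adjusted p 0.0284) and -0.39 for Fcrls (SE 0.12, edgeR adjusted p 0.0554). The 8 called members stand against a background of 9.24% of all tested genes called lower, 7.8% called higher and 17.0% called in either direction. The median of the 9 was -1.18, against 0.00 over all genes tested. In the order by loss, Slc2a5 differed from Selplg, Tmem119 from Cx3cr1, and Olfml3 from Fcrls by more than 2 combined SEs, and the other 5 neighbouring pairs did not.

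**Figure D2:**
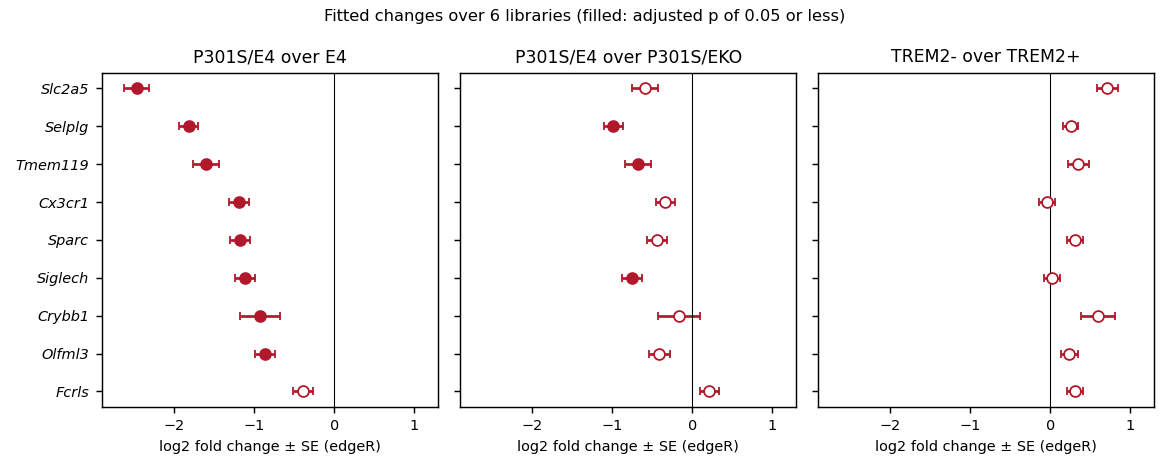
Log2 fold change ± SE of each gene in the edgeR fit over 6 libraries, for P301S/E4 over E4 (left), P301S/E4 over P301S/EKO (middle) and TREM2- over TREM2+ (right), with filled points at an adjusted p of 0.05 or less. The genes run from the largest loss with tau, Slc2a5 at -2.47, to the smallest, Fcrls at -0.39, and points are filled for 8 genes on the left, 3 in the middle and 0 on the right.

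Restricted to microglia-like clusters, the losses were as large, Slc2a5 at -2.59 and Tmem119 at -1.70, and Fcrls was called too (-0.48, edgeR adjusted p 0.0185). The Crybb1 call was lost without E4/TREM2+ (-0.42, edgeR adjusted p 0.387) and without P301S/E4/TREM2+ (-0.77, edgeR adjusted p 0.121), and in nuclei with at least 500 genes (-0.76, edgeR adjusted p 0.0503). Fewer nuclei that use a gene and less RNA per nucleus cannot be told apart in these summed values.

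Having APOE4 rather than no Apoe in tau mice went with lower Selplg, Siglech and Tmem119. These 3 of the 9 fell in P301S/E4 compared with P301S/EKO, to 0.505, 0.593 and 0.623 of the P301S/EKO level, and Fcrls was the one member with a value above 0. Selplg had 356 CPM in P301S/E4/TREM2- and 287 in P301S/E4/TREM2+, against 702 in P301S/EKO/TREM2- and 577 in P301S/EKO/TREM2+. Siglech had 858 CPM in P301S/E4/TREM2- and 889.6 in P301S/E4/TREM2+, against 1415 in P301S/EKO/TREM2- and 1558 in P301S/EKO/TREM2+. Both genes were clearly lower in either P301S/E4 library. Tmem119 had 245 CPM in P301S/E4/TREM2- and 141 in P301S/E4/TREM2+, against 308 in P301S/EKO/TREM2- and 298 in P301S/EKO/TREM2+. For Tmem119 most of the distance came from P301S/E4/TREM2+: the log2 ratio was -0.33 (95% counting interval -0.44 to -0.22) between the TREM2- libraries and -1.08 (-1.22 to -0.95) between the TREM2+ libraries.

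Cx3cr1 had 1324 CPM in P301S/E4/TREM2- and 1437 in P301S/E4/TREM2+, against 1661 in P301S/EKO/TREM2- and 1863 in P301S/EKO/TREM2+. Sparc had 639 CPM in P301S/E4/TREM2- and 435.5 in P301S/E4/TREM2+, against 772 in P301S/EKO/TREM2- and 677 in P301S/EKO/TREM2+. Olfml3 had 270.2 CPM in P301S/E4/TREM2- and 259 in P301S/E4/TREM2+, against 388 in P301S/EKO/TREM2- and 324 in P301S/EKO/TREM2+. These 3 genes were also lower in both P301S/E4 libraries, by less. Slc2a5 had 48.1 CPM in P301S/E4/TREM2- and 26.7 in P301S/E4/TREM2+, against 74.4 in P301S/EKO/TREM2- and 39.6 in P301S/EKO/TREM2+, so that the groups overlapped across TREM2 genotypes. Crybb1 had 37.1 CPM in P301S/E4/TREM2- and 21.6 in P301S/E4/TREM2+, against 46.7 in P301S/EKO/TREM2- and 20.9 in P301S/EKO/TREM2+. Fcrls had 734 CPM in P301S/E4/TREM2- and 553 in P301S/E4/TREM2+, against 635 in P301S/EKO/TREM2- and 480.5 in P301S/EKO/TREM2+. Crybb1 and Fcrls overlapped between the groups, and Fcrls was higher with APOE4 within each TREM2 genotype, at a log2 ratio of 0.21 (0.14 to 0.28) in TREM2- and 0.20 (0.12 to 0.29) in TREM2+. Both P301S/E4 libraries were under both P301S/EKO libraries for 6 of the 9 members and for 25.0% of all tested genes.

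The fitted log2 fold change of P301S/E4 over P301S/EKO was -0.98 for Selplg (SE 0.12, edgeR adjusted p 0.00216), -0.75 for Siglech (SE 0.12, edgeR adjusted p 0.0107) and -0.68 for Tmem119 (SE 0.16, edgeR adjusted p 0.0459). It was -0.59 for Slc2a5, -0.44 for Sparc, -0.41 for Olfml3, -0.34 for Cx3cr1 and -0.16 for Crybb1, and 0.22 for Fcrls, with edgeR adjusted p of 0.0803 to 0.800. The 3 called members stand against 1.87% of all tested genes called lower, 1.8% called higher and 3.67% called in either direction, and their list had a median of -0.44 against 0.01 for all genes. No neighbouring pair in this order differed by more than 2 combined SEs. The Tmem119 call ended without P301S/E4/TREM2+ (-0.37, edgeR adjusted p 0.0946), without P301S/EKO/TREM2+ (-0.51, 0.139), in nuclei with at least 500 genes (-0.63, 0.0971) and after thinning to 500 UMIs (-0.60, 0.0509). This comparison and that with E4 share the 2 P301S/E4 libraries, so the losses are not independent of each other.

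Deleting Trem2 went with values above 0 for 8 of the 9 genes over the 3 backgrounds, but none of the 9 passed the test. In 6 members the TREM2- library was the higher one in all 3 backgrounds: Tmem119, Selplg, Slc2a5, Olfml3, Fcrls and Sparc. That was so for 11.3% of all tested genes. Slc2a5 had 48.1 CPM in P301S/E4/TREM2- against 26.7 in P301S/E4/TREM2+, 74.4 in P301S/EKO/TREM2- against 39.6 in P301S/EKO/TREM2+, and 219 in E4/TREM2- against 169.5 in E4/TREM2+. Its log2 ratio of TREM2- over TREM2+ was 0.85 (95% counting interval 0.58 to 1.13) in P301S/E4, 0.91 (0.61 to 1.22) in P301S/EKO and 0.37 (0.22 to 0.52) in E4. Slc2a5 was thus higher without Trem2 in each background, with or without Apoe.

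Tmem119 had its largest ratio of TREM2- over TREM2+ in P301S/E4: 245 CPM in P301S/E4/TREM2- against 141 in P301S/E4/TREM2+, 308 in P301S/EKO/TREM2- against 298 in P301S/EKO/TREM2+, and 573 in E4/TREM2- against 528 in E4/TREM2+. The log2 ratio was 0.80 (0.68 to 0.92) in P301S/E4, 0.05 (-0.08 to 0.17) in P301S/EKO and 0.12 (0.03 to 0.21) in E4. Whether the step in P301S/E4 exceeded that shared by the other backgrounds was fitted as an interaction. For Tmem119 the interaction was 0.63 (SE 0.18, edgeR adjusted p 0.0704), the lowest p of the 9, with 0 members called against 2.04% of all tested genes (0.599% higher and 1.44% lower). It was called in nuclei with at least 500 genes (0.73, edgeR adjusted p 0.0289), without the TMM factor (0.72, 0.0492) and without the expression filter (0.67, 0.0359), while it was not after thinning (0.60, 0.415) or with DESeq2 (0.63, 1.00). In the fits with at least 500 genes and without the expression filter, a gene's own spread carried no weight, while it carried some in the main fit. Sparc had the next highest interaction among the members, 0.31 (SE 0.16, edgeR adjusted p 0.412). Its ratio was 0.55 (0.48 to 0.62) in P301S/E4, 0.19 (0.11 to 0.27) in P301S/EKO and 0.11 (0.05 to 0.17) in E4. The other 7 lay between -0.32 (Olfml3) and 0.24 (Crybb1), with edgeR adjusted p of 0.420 to 0.955. Olfml3 thus lay about as far below 0 as Sparc lay above it.

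The remaining members fell into different patterns. Crybb1 was higher in the TREM2- library of both tau backgrounds, at 0.78 (0.47 to 1.09) in P301S/E4 and 1.16 (0.76 to 1.58) in P301S/EKO, against -0.12 (-0.41 to 0.18) in E4. Fcrls followed the same pattern, at 0.41 (0.35 to 0.47) in P301S/E4 and 0.40 (0.31 to 0.49) in P301S/EKO, against 0.05 (-0.02 to 0.12) in E4. Selplg was at 0.31 (0.22 to 0.40) in P301S/E4, 0.28 (0.20 to 0.37) in P301S/EKO and 0.09 (0.03 to 0.15) in E4. These 3 genes had larger ratios in both tau backgrounds than in E4, a difference that was not tested apart from the interaction above. Olfml3 was at 0.06 (-0.03 to 0.16) in P301S/E4, 0.26 (0.14 to 0.37) in P301S/EKO and 0.32 (0.22 to 0.41) in E4. Cx3cr1 and Siglech were not higher in the TREM2- library of either tau background: Cx3cr1 was at -0.12 (-0.16 to -0.08) in P301S/E4, -0.17 (-0.22 to -0.11) in P301S/EKO and 0.08 (0.04 to 0.11) in E4. Siglech was at -0.05 (-0.10 to 0.00) in P301S/E4, -0.14 (-0.20 to -0.08) in P301S/EKO and 0.17 (0.12 to 0.22) in E4.

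**Figure D3:**
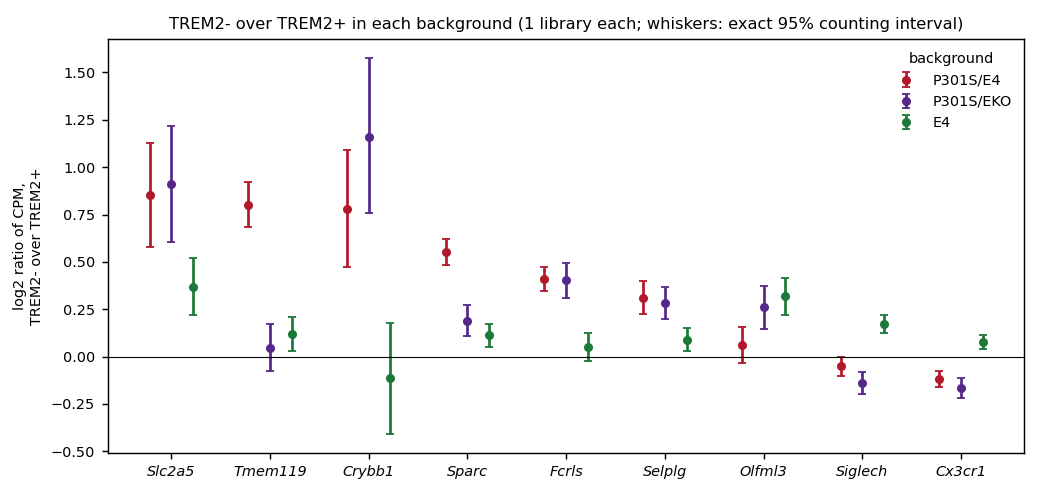
Log2 ratio of CPM of TREM2- over TREM2+ for each gene within P301S/E4, P301S/EKO and E4, 1 library against 1, with whiskers for the exact 95% counting interval. Slc2a5 lies above 0 in all 3 backgrounds, Tmem119 stands at 0.80 in P301S/E4, 0.05 in P301S/EKO and 0.12 in E4, and Cx3cr1 lies below 0 in both tau backgrounds and above 0 in E4.

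Over all backgrounds the fitted TREM2- over TREM2+ log2 fold change was 0.71 for Slc2a5 (SE 0.13, edgeR adjusted p 0.104) and 0.60 for Crybb1 (SE 0.21, edgeR adjusted p 0.615). It was 0.35 for Tmem119, 0.31 for Fcrls, 0.31 for Sparc, 0.25 for Selplg and 0.24 for Olfml3, with SEs of 0.09 to 0.13 and edgeR adjusted p of 0.558 to 0.787. It was 0.02 for Siglech, which turned to -0.01 without the TMM factor, and -0.04 for Cx3cr1. The test called 14 of the 12515 genes, 0.112% (0.032% higher and 0.0799% lower), with 778 at an unadjusted p of 0.05 or less, and 7 of the 9 members were among the latter. DESeq2 called 0 of the 9 as well. The median of the 9 was 0.31, against 0.01 over all genes tested. Trem2 itself fell by 1.10 (SE 0.10, edgeR adjusted p 0.00146). Slc2a5 was called in microglia-like clusters alone (0.73, edgeR adjusted p 0.0461). It was also called without the expression filter (0.70, edgeR adjusted p 0.000128), where a gene's own spread carried no weight. Without P301S/E4/TREM2-, E4/TREM2- or E4/TREM2+ its value was 0.63 to 0.89. Leaving out either E4 library gives nearly the same refit, because the other, alone in its background, adds nothing to the TREM2 change. The border-associated macrophage markers and share were also higher in the TREM2- library of each background, at 4.98% of nuclei in P301S/E4/TREM2- against 2.88% in P301S/E4/TREM2+, 2.02% in P301S/EKO/TREM2- against 1.84% in P301S/EKO/TREM2+, and 6.55% in E4/TREM2- against 4.86% in E4/TREM2+. Within microglia-like clusters the fitted changes of Fcrls and Sparc were 0.34 and 0.34, against 0.31 and 0.31 over all nuclei. The part of the macrophage share in the members' changes with Trem2 deletion was not tested.

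Set beside the loss with tau, the higher levels in P301S/E4/TREM2- covered different parts of the distance to E4/TREM2+. Tmem119 stood at 46.4% of its E4/TREM2+ level in P301S/E4/TREM2- and at 26.6% in P301S/E4/TREM2+, and Slc2a5 at 28.4% and 15.7% in the same libraries. Fcrls stood at 92.7% in P301S/E4/TREM2- and 69.8% in P301S/E4/TREM2+, Crybb1 at 68.8% and 40.1%, and Sparc at 57.4% and 39.1%. For Selplg the values were 33.7% in P301S/E4/TREM2- and 27.2% in P301S/E4/TREM2+, and for Olfml3 64.7% and 62.0%. Siglech, at 49.8% in P301S/E4/TREM2- and 51.6% in P301S/E4/TREM2+, and Cx3cr1, at 44.7% and 48.5%, were no nearer to E4 without Trem2. Ranked by the ratio of P301S/E4/TREM2- over P301S/E4/TREM2+, the order was Slc2a5, Tmem119, Crybb1, Sparc, Fcrls, Selplg, Olfml3, Siglech and Cx3cr1. The counting intervals of the first 3 overlapped, and that of Sparc overlapped those of Slc2a5 and Crybb1. Those of Fcrls and Selplg overlapped, as did those of Olfml3 and Siglech and those of Siglech and Cx3cr1. No neighbouring pair in the order by the fitted TREM2 change differed by more than 2 combined SEs. The loss and the ratio share the P301S/E4/TREM2+ library, so a low value there enters both.

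Shares of nuclei with a UMI were compared at equal depth. Thinning to 500 UMIs left out shallower nuclei of 3 libraries only, 1827 in P301S/EKO/TREM2-, 417 in E4/TREM2- and 1488 in E4/TREM2+. Tmem119 was then detected in 11.99% of nuclei in P301S/E4/TREM2-, 6.95% in P301S/E4/TREM2+, 13.6% in P301S/EKO/TREM2-, 13.7% in P301S/EKO/TREM2+, 25.1% in E4/TREM2- and 22.4% in E4/TREM2+. Before thinning the shares were 22.6%, 11.4%, 16.9%, 24.0%, 34.8% and 28.7% in the same libraries. Cx3cr1 was detected in 46.8% of thinned nuclei in P301S/E4/TREM2-, 50.3% in P301S/E4/TREM2+, 53.2% in P301S/EKO/TREM2-, 58.1% in P301S/EKO/TREM2+, 75.7% in E4/TREM2- and 73.8% in E4/TREM2+, against 67.0%, 65.7%, 58.1%, 75.7%, 83.8% and 78.9% unthinned. No order is read from the Tmem119 shares of the 2 P301S/EKO libraries, which went against their CPM. After thinning, and leaving out Crybb1, all 8 other members had a lower share in P301S/E4 than in E4 within each TREM2 genotype, and 7 of 8 a lower share than in P301S/EKO, Fcrls being the exception. The Slc2a5 shares in P301S/E4/TREM2- (2.73%), P301S/E4/TREM2+ (1.26%) and P301S/EKO/TREM2+ (2.37%) were under the limit of 2.86% that neuron-like nuclei allow. The place of Slc2a5 in these counts is therefore not firm. Without thinning the count against P301S/EKO was 2 of 8 for P301S/E4/TREM2- against P301S/EKO/TREM2-, the deepest and the shallowest library. Neuron-like nuclei held UMIs of Tmem119 and Cx3cr1 too, in 2.36% and 6.30% of them after thinning, under every library's share of the same gene.

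Nuclei in which none of the 9 genes was detected were commoner in tau libraries. At 500 UMIs they made up 16.1% of nuclei in P301S/E4/TREM2- (exact binomial 95% interval 15.2% to 17.0%), 17.1% in P301S/E4/TREM2+ (16.1% to 18.0%), 8.44% in P301S/EKO/TREM2- (7.50% to 9.45%), 8.21% in P301S/EKO/TREM2+ (7.33% to 9.16%), 3.97% in E4/TREM2- (3.41% to 4.59%) and 3.72% in E4/TREM2+ (3.13% to 4.39%). A nucleus held on average 2.39 UMIs of the 9 genes in P301S/E4/TREM2-, 2.10 in P301S/E4/TREM2+, 3.02 in P301S/EKO/TREM2-, 3.00 in P301S/EKO/TREM2+, 5.04 in E4/TREM2- and 4.54 in E4/TREM2+. The share with 3 or more of the genes was 29.3% in P301S/E4/TREM2-, 21.1% in P301S/E4/TREM2+, 38.3% in P301S/EKO/TREM2-, 36.6% in P301S/EKO/TREM2+, 67.5% in E4/TREM2- and 61.9% in E4/TREM2+. The TREM2- library of P301S/E4 thus differed from its TREM2+ library more in nuclei holding several of the genes than in nuclei holding none.

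**Figure D4:**
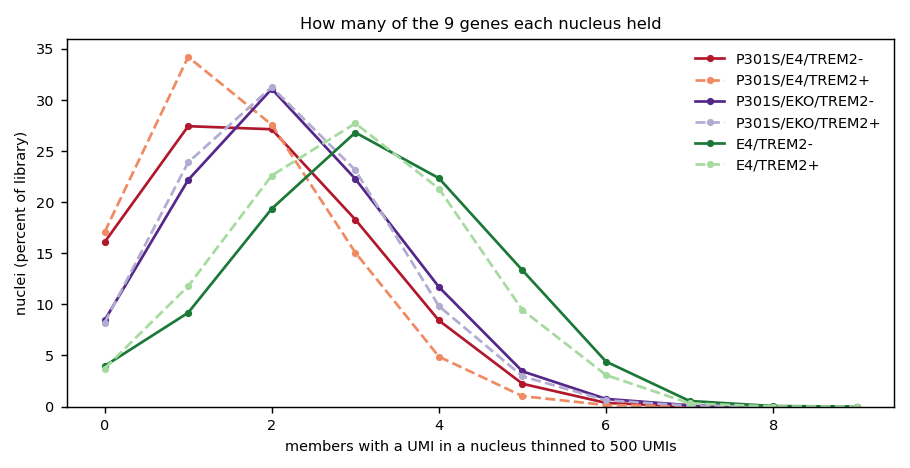
Percent of nuclei of each library (lines, solid for TREM2- and dashed for TREM2+) by how many of the 9 genes had a UMI after thinning to 500 UMIs. The curves shift left from E4 through P301S/EKO to P301S/E4, and P301S/E4/TREM2- holds 3 or more genes in 29.3% of nuclei against 21.1% in P301S/E4/TREM2+.

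The members' levels were lower in P301S/E4 than in E4 also among nuclei in which no disease-associated transcript was sampled. Nuclei were grouped by their UMIs, at 500 UMIs each, of 13 disease-associated genes, the 19 matched genes of a list from which Apoe, Lyz2, Ctsb, Ctsd, Cd68 and Cd63 were left out after the data were seen, Apoe because 2 groups lack it and the others because they are broadly expressed. Cd9 stayed among the 13 although its CPM was above that of Cd63 and Cd68 in every library. Cd9 had 443 CPM in E4/TREM2- and 420.5 in E4/TREM2+, where the next highest of the 13 was Ccl6 at 42.8 and 40.75. In P301S/E4/TREM2- and P301S/E4/TREM2+ Cd9 had 644 and 896.5 CPM, and Spp1 91.0 and 435. Equal UMIs thus came mostly from Cd9 in E4 and from more genes in P301S/E4, so the groups may not match between libraries. The 13 genes averaged 0.849 UMIs per nucleus in P301S/E4/TREM2- and 1.42 in P301S/E4/TREM2+, against 0.293 in E4/TREM2- and 0.264 in E4/TREM2+, so that 0 UMIs does not show that a nucleus lacks them. In nuclei with 0 UMIs of the 13 genes, the summed 9 members had 5030 CPM in P301S/E4/TREM2- (3416 nuclei) against 9989 in E4/TREM2- (3308 nuclei), and 4540.0 CPM in P301S/E4/TREM2+ (2064 nuclei) against 8999 in E4/TREM2+ (2804 nuclei). The log2 ratio was -0.99 (-1.03 to -0.95) between the TREM2- libraries and -0.99 (-1.04 to -0.94) between the TREM2+ libraries. In nuclei with 1 to 2 such UMIs it was -1.12 (-1.18 to -1.07) and -1.15 (-1.21 to -1.09) between the same libraries. Nuclei with 3 or more made up 7.54% of nuclei in P301S/E4/TREM2- against 18.0% in P301S/E4/TREM2+, and there the members summed to 3174 CPM in P301S/E4/TREM2-, against 3413 in P301S/E4/TREM2+. The E4 libraries had 21 and 14 such nuclei, too few for a ratio. With all 19 genes, nuclei with 0 UMIs were few in P301S/E4 (127 in TREM2- and 96 in TREM2+), and the log2 ratio of the summed members to E4 there was -0.93 (-1.11 to -0.77) between the TREM2- libraries and -0.99 (-1.20 to -0.79) between the TREM2+ libraries.

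Within P301S/E4 the TREM2- over TREM2+ ratio of Tmem119 was 0.67 (0.42 to 0.93) in nuclei with 0 of these UMIs, 0.80 (0.56 to 1.03) with 1 to 2 and 0.70 (0.12 to 1.27) with 3 or more. The CPM of Tmem119 in these 3 groups was 272, 269 and 178 in P301S/E4/TREM2-, against 170.5, 155 and 110 in P301S/E4/TREM2+. Tmem119 was thus higher in the TREM2- library in each of these groups of nuclei. With all 19 genes it had 142 CPM in P301S/E4/TREM2- (9 UMIs) against 146 in P301S/E4/TREM2+ (7 UMIs) in nuclei with 0 of their UMIs, 276 against 198 with 1 to 2, and 264 against 142.5 with 3 or more. It was then not higher in the smallest group of nuclei. By the 13 genes, Siglech was at -0.19 (-0.30 to -0.08), -0.15 (-0.26 to -0.04) and -0.46 (-0.79 to -0.14) in the same groups of nuclei, while by all 19 genes it was at 0.02 (-0.50 to 0.54), 0.00 (-0.17 to 0.18) and -0.12 (-0.20 to -0.03). Fcrls in P301S/E4/TREM2- stood at -0.05 (-0.16 to 0.06) relative to E4/TREM2- in nuclei with 0 UMIs of the 13 genes, and at -0.39 (-0.92 to 0.11) in the 127 nuclei with 0 UMIs of all 19, while between the TREM2+ libraries, with 0 UMIs of the 13 genes, it was at -0.44 (-0.58 to -0.30).

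**Figure D5:**
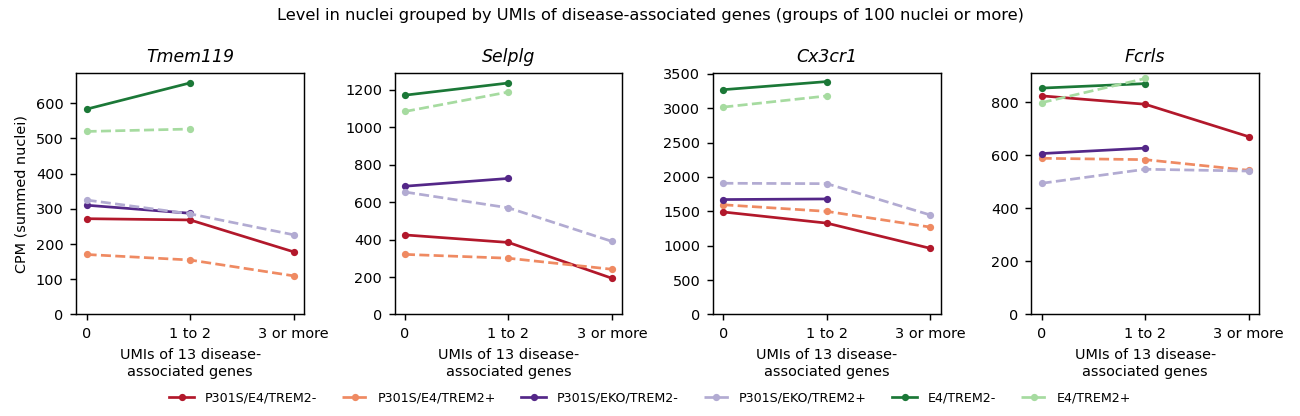
CPM of Tmem119, Selplg, Cx3cr1 and Fcrls (axes from 0) in nuclei with 0, 1 to 2, or 3 or more UMIs of 13 disease-associated genes, 1 line per library (solid for TREM2-, dashed for TREM2+), all nuclei thinned to 500 UMIs and points of under 100 nuclei left out. In nuclei with 0 of these UMIs Tmem119 had 272 CPM in P301S/E4/TREM2- and 170.5 in P301S/E4/TREM2+, against 583 in E4/TREM2- and 520.0 in E4/TREM2+.

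The libraries also differed in which microglia-like clusters held their nuclei. Cluster 0, led by Upk1b and by the member Slc2a5, held 4.28% of nuclei in P301S/E4/TREM2- and 2.42% in P301S/E4/TREM2+, against 57.3% of E4/TREM2- and 45.3% of E4/TREM2+. Cluster 3, led by the interferon-response gene Oasl2, held 32.6% of nuclei in P301S/E4/TREM2- against 13.5% in P301S/E4/TREM2+, and cluster 4, led by Lpl, held 7.51% in P301S/E4/TREM2- against 29.9% in P301S/E4/TREM2+. The genes that lead these clusters themselves differ between the libraries, so the shares only show where the nuclei of each library lie. The comparison with E4 within clusters left out clusters 3, 4 and 5, the last led by Gpnmb, which had 29 to 79 nuclei in each E4 library. In that order they held 32.6%, 7.51% and 12.45% of nuclei in P301S/E4/TREM2- and 13.5%, 29.9% and 12.8% in P301S/E4/TREM2+. Clusters 9, 11 and 12 were left out too, with under 100 nuclei in each E4 library. Cluster 9, led by Top2a, held 5.01% of nuclei in P301S/E4/TREM2- and 1.54% in P301S/E4/TREM2+. A large part of the P301S/E4 nuclei thus lay outside the comparison. In the 5 microglia-like clusters with at least 100 nuclei of each library compared, Tmem119, Cx3cr1, Siglech, Selplg, Slc2a5, Olfml3 and Sparc were lower in P301S/E4 than in E4 in all 5, within either TREM2 genotype. The median over these clusters was -1.62 for Slc2a5 between the TREM2- libraries and -2.03 between the TREM2+ libraries, and -1.19 and -1.55 for Tmem119. Fcrls was lower in 3 of 5 clusters between the TREM2- libraries (median -0.01) and in 5 of 5 between the TREM2+ libraries (median -0.53). Within P301S/E4, 8 microglia-like clusters had at least 100 nuclei of each library, clusters 9, 11 and 12 being left out. Tmem119, Selplg, Slc2a5, Crybb1, Fcrls and Sparc were higher in TREM2- in 8 of these 8. Cx3cr1 and Siglech were lower in 6 of 8. The counting interval lay above 0 in 7 of 8 for Fcrls and Sparc and 6 for Tmem119. It did so in 3 for Selplg and only 2 for Slc2a5 and Crybb1. The interval lay below 0 in 4 of 8 for Cx3cr1 and 3 for Siglech. Clusters are groups of nuclei of the same libraries, so these counts describe the libraries and are not replicates.

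Other genes tied to microglial homeostasis moved with the members in part. Of a list of 32, 16 fell and 1 rose with tau, with a median of -0.47, beside 9.24% of all tested genes called lower and 7.8% called higher. The lowest were Upk1b, a uroplakin, at -3.03 (SE 0.23, edgeR adjusted p 2.99e-05), the purinergic receptors P2ry12 at -1.63 (SE 0.12, edgeR adjusted p 2.99e-05) and P2ry13 at -1.33 (SE 0.12, edgeR adjusted p 6.51e-05). The smallest called losses were those of the transcription factor Mef2a at -0.46 (edgeR adjusted p 0.0190) and the integrin Itgb5 at -0.47 (edgeR adjusted p 0.0221). The one that rose was Serpine2, a serine protease inhibitor, at 0.74 (SE 0.15, edgeR adjusted p 0.00602). P2ry12 had 518 CPM in P301S/E4/TREM2- and 354 in P301S/E4/TREM2+, 787 in P301S/EKO/TREM2- and 654 in P301S/EKO/TREM2+, and 1337 in E4/TREM2- and 1235 in E4/TREM2+, which is the order of libraries also seen for Selplg. With APOE4, where 1.87% of all tested genes were called lower and 1.8% higher, 4 of the 32 fell, among them Upk1b at -1.28, P2ry12 at -0.73 and the lysophospholipid receptor Gpr34 at -0.63, and Cst3, which encodes the protease inhibitor cystatin C, at -0.62. With Trem2 deletion 0 of the 32 were called by edgeR, 9 having an unadjusted p of 0.05 or less, and the median was 0.02. Of 20 disease-associated genes, 19 were tested: 17 rose with tau and 16 rose with APOE4, against the same shares of all genes. The 16 include Apoe, whose difference follows from the lack of Apoe in P301S/EKO. Beside 0.0799% of all tested genes called lower, Spp1, Lpl and Itgax fell with Trem2 deletion.

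The median profile of the 9 members over the 6 libraries, centred on the log2(CPM + 1) scale, was -0.38 in P301S/E4/TREM2-, -0.70 in P301S/E4/TREM2+, 0.04 in P301S/EKO/TREM2-, -0.12 in P301S/EKO/TREM2+, 0.66 in E4/TREM2- and 0.58 in E4/TREM2+. Sparc lay closest to it, with a root mean square difference of 0.07, and Slc2a5 farthest, at 0.62. Among 1867 genes with a mean of at least 100 CPM, the 5 nearest were Susd3 (0.07), Pmepa1 (0.09), Tmem173 (0.10), P2ry13 (0.10) and Adgrg1 (0.11). Pmepa1, known as a target of TGF-β signalling, had 199 CPM in P301S/E4/TREM2-, 136 in P301S/E4/TREM2+, 225 in P301S/EKO/TREM2-, 228 in P301S/EKO/TREM2+, 379 in E4/TREM2- and 341 in E4/TREM2+. Tmem173, which encodes the innate immune adaptor STING, had 175 CPM in P301S/E4/TREM2-, 122 in P301S/E4/TREM2+ and 308 in each E4 library.

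In the authors' deposited table of TERM nuclei, their name for a microglial state, against homeostatic nuclei, all 9 genes had negative log fold changes, -2.42 for Slc2a5, -1.95 for Siglech and -0.46 for Fcrls at the ends, with the base of the log not given in the sources used here. In the authors' deposited table of P301S/E4/TREM2+ against P301S/E4/TREM2-, whose fold changes run in the direction opposite to those above, Tmem119 was at -1.85 with an adjusted p of 1.33e-06. That authors' deposited table had the other 8 members at adjusted p-values of 0.247 to 1.0, over nuclei as the units, and its values for Fcrls (0.10), Olfml3 (0.22) and Siglech (-0.13) were opposite in direction to the ratios of summed UMIs given above. The authors' deposited marker table listed 7 of the 9, all but Crybb1 and Fcrls, as markers of the group of nuclei they named Ground.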

How the data were processed

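Nuclei were sorted for PU.1 and sequenced with 10x Genomics v3.1 chemistry, per the labels' protocols. The deposited matrices hold raw UMI counts per gene and nucleus, made with Cell Ranger 3.0.1 per the file headers and aligned to mm10 per the labels; whether intronic reads were counted is not given in the sources used here, and intron counting bears on nuclear RNA. The sort excluded doublets, per the labels' protocols, and no doublet caller was run. The authors' deposited tables hold log fold changes, taken as a score because their base is not stated, and p-values over nuclei.

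From the counts, nuclei with at least 200 genes and at most 5% mitochondrial UMIs were kept, and UMIs were summed per library. edgeR 4.0.16 (R 4.3.3) fitted background and TREM2 genotype with TMM factors, filterByExpr and the quasi-likelihood F test over 12515 genes, with 2 residual degrees of freedom, or 1 with a term for P301S/E4/TREM2-. Benjamini-Hochberg adjusted p of 0.05 or less was called, and the SE is the log2 fold change divided by the square root of F. Within this additive fit an effect that depends on the other genotype counts as spread. Ratios between 2 libraries have exact binomial 95% counting intervals, shares exact Clopper-Pearson ones. UMIs limit the effect of PCR duplicates, and these intervals cover counting error only. The fits were tested on simulated counts: of genes changed by a log2 of 1, 64% were recovered for tau, 67.7% for APOE4 and 81.1% for TREM2 deletion, and of those changed by 2, 98% to 100%. Unchanged genes called numbered 13, 8 and 10 in the same order. Every simulated gene had the same spread and an additive change. The simulation thus does not cover spread that differs by gene or changes that depend on background. Changes smaller than a log2 of 1 were not simulated.

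Leiden clusters (scanpy 1.11.5, leidenalg 0.10.2, resolution 1) used 2000 variable genes, leaving out the 9 members, 30 components and 15 neighbours. A cluster was named after another class if at least 3 and 50% of that class's markers were over 2-fold, and microglia-like if it held 12 of 20 microglia markers. Genes named are the 9 members, the called homeostatic genes with the 3 highest and 3 lowest changes, and the 5 genes nearest in profile; Spp1, Lpl and Itgax were named after their values were seen, as the members of a short count. One result of the interaction for the homeostatic list is not reported here. The members and lists were chosen with earlier results of these data known, and the shortened list of 13 disease-associated genes and the ratios within clusters were added after seeing the data. The alternatives tried were total-UMI scaling, DESeq2 1.42.0, no expression filter, microglia-like clusters only, at least 500 genes, thinning to 500 UMIs, and leaving out each library, where the library left alone in its background is assumed to vary like the others. No paired analysis applied, and no column of sample values was left unused.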

Additional observations from a re-analysis of the deposited data

Results flagged for a closer look

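Cx3cr1 and Siglech differed in direction between backgrounds when TREM2- libraries were set over TREM2+ libraries, with counting intervals on opposite sides of 0. For Cx3cr1 the log2 ratio was -0.12 within P301S/E4 and -0.17 within P301S/EKO, against 0.077 within E4. For Siglech it was -0.14 within P301S/EKO, against 0.17 within E4. Each value rests on 1 library against 1, and the difference between backgrounds was not tested for the pairs; in the edgeR fit with a term for P301S/E4/TREM2-, that term was -0.17 for Cx3cr1 (SE 0.16, adjusted p 0.691) and -0.16 for Siglech (SE 0.17, adjusted p 0.721).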

How the results depend on the processing

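Of the members' fitted changes with tau, 103 of 108 values under the alternatives kept their direction and side of the threshold. Members called with Trem2 deletion went to 2 without the expression filter, 1 in microglia-like clusters and 0 to 1 without single libraries. Members called with APOE4 were 5 without the expression filter. Members called in the interaction were 1 without the composition factor, 1 without the expression filter and 1 with at least 500 genes. The number of all genes called in those interaction fits is not given here. Their member counts are therefore not read as a result about the members. All genes called with Trem2 deletion were 226 without the filter, 22 in microglia-like clusters, 26 after thinning and 11 to 114 without single libraries. With tau they were 1347 under DESeq2 and 1083 to 2788 without single libraries. With APOE4 they were 1258 without the filter and 282 to 1300 without single libraries. In the interaction they were 5 under DESeq2 and 1 after thinning. Genes tested were 12515 without the composition factor and 21040 without the filter. They were 11836 in microglia-like clusters, 10932 after thinning and 11993 with at least 500 genes. Without the expression filter, a gene's own spread carried no weight in these fits. The same was so for the interaction in nuclei with at least 500 genes and in microglia-like clusters. It was also so for the additive fit without P301S/EKO/TREM2+, and nearly so for that without P301S/EKO/TREM2-. The cause of these moves was not tested. Within E4, members lower in TREM2- were 0 with at least 500 genes and 0 after thinning. After thinning, members with a lower share of nuclei, Crybb1 included, were 8 for P301S/E4/TREM2- against P301S/EKO/TREM2-, 2 for TREM2- against TREM2+ in P301S/E4 and 3 in P301S/EKO. Directions turned for Cx3cr1 with Trem2 deletion (-0.13 to 0.0069 over single libraries left out, above 0 without P301S/E4/TREM2- and without P301S/E4/TREM2+), for Siglech (-0.0058 without the composition factor, and -0.089 to 0.073 over single libraries left out, below 0 without E4/TREM2- and without E4/TREM2+) and for Crybb1 with APOE4 (-0.54 to 0.33, above 0 without P301S/EKO/TREM2-); none of these was called. Leaving out either library of a background gives nearly the same TREM2 refit. The other, alone in its background, adds nothing to the TREM2 change. No paired analysis was possible because each genotype has 1 library and the labels give no replicate numbers. Crybb1 and Slc2a5, with 78 to 879 UMIs per library, are limited by depth.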
